A study of Mus musculus with 8 samples.

Results

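The Zscan4 genes form a cluster of near-identical copies on mouse chromosome 7 that is best known from the 2-cell embryo. Its members were taken by gene symbol, Zscan4a to Zscan4f, and 5 of these 6 symbols had a row among the 46078 genes of the count table (Zscan4b, Zscan4c, Zscan4d, Zscan4e and Zscan4f). Zscan4a was not analysed here. The cluster was selected on its measured level in these same libraries, where earlier results showed it higher in knockout than in control oocytes, so its own knockout against control values are given as a description without a test.

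RNA was sequenced from fully grown germinal vesicle (GV) oocytes, which are arrested in meiotic prophase and largely silent in transcription. Oocytes lacking both Cnot7 and Cnot8, the paralogous deadenylase subunits of the CCR4-NOT complex that shortens mRNA poly(A) tails, were compared with Zp3-Cre control oocytes, with 4 libraries of 100 oocytes in each group. The CNOT7&8 KO oocytes carried floxed alleles of Cnot7 and Cnot8 (Cnot7 fl/fl, Cnot8 fl/fl) deleted by the Zp3-Cre transgene, whose promoter is active in growing oocytes, and the control libraries carried the Zp3-Cre transgene, so that both groups share the Cre. The females were on a C57BL/6J background, were injected with 5 IU PMSG at 4 weeks of age, and gave their GV oocytes 48 h later. Nothing in the labels says that libraries of a group came from separate animals, so each p-value measures only the spread between these libraries. Because every library pools 100 oocytes, more oocytes with Zscan4 RNA and more Zscan4 RNA per oocyte cannot be told apart.

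Zscan4 proteins join an N-terminal SCAN domain, which pairs proteins with one another, to C-terminal zinc fingers that bind DNA. In mouse the genes are transcribed in a burst when the embryonic genome is first activated, and again in a small, transient fraction of embryonic stem cells, where Zscan4 is known for telomere lengthening through recombination and for genomic stability. The homeobox factor DUX switches on Zscan4 together with a wider group of 2-cell genes, and chromatin repressors hold that group silent in other cells.

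The copies are so alike that reads are hard to assign to one of them, and the sequences are shown first because every per-member value depends on this. By GENCODE vM21 (GRCm38), the span from Zscan4a to Zscan4f covers chr7:10794242-11402318, or 608077 bp. Zscan4b lies at chr7:10900740-10905050 on the minus strand and Zscan4c at chr7:11005745-11010547 on the plus strand. Zscan4d lies at chr7:11161374-11166159 and Zscan4e at chr7:11306378-11310682, both on the minus strand, and Zscan4f at chr7:11397915-11402318 on the plus strand. The annotated coding sequences encode 506 amino acids in Zscan4c, Zscan4d and Zscan4f and 505 in Zscan4b and Zscan4e. Within the span the table held 3 other genes (Mir297-1, Gm26248 and Gm23087), with 0, 3 and 2 counts over all 8 libraries.

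Transcripts of Zscan4b and Zscan4e were 99.7% identical over their aligned bases, and those of Zscan4c and Zscan4f were 99.6% identical. Zscan4f was 99.8% identical to Zscan4-ps2, a further annotated copy that was not analysed here. Zscan4d was the most distinct of the 5. Of all 100-base words in its transcript, 70.4% occurred in no other annotated family member, against 27.2% for Zscan4c, 21.3% for Zscan4b, 15.9% for Zscan4e and 10.5% for Zscan4f. In the last coding exon 52 of 983 sites varied among the 5 members, whereas 7 of 375 did in the first coding exon. A 30-base stretch of the last coding exon shows how little separates them, with bases that differ from Zscan4d in capitals and positions counted from 1 at the 5′ end:

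Zscan4d: ccttcttattatccagaaagaacagtaccc

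Zscan4c: ccttcttattatccagaaagaacagCaccc

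Zscan4f: ccttcttattatGcagaaagaacagCaccc

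Zscan4b: ccttcttattaCccagaaagaacaAAaccA

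Zscan4e: ccttcttattaCccagaaagaacaAAaccA

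These stretches lie at chr7:11162786-11162815 (Zscan4d), chr7:11009102-11009131 (Zscan4c), chr7:11401295-11401324 (Zscan4f), chr7:10901659-10901688 (Zscan4b) and chr7:11307288-11307317 (Zscan4e) of GRCm38, each read on the strand of its gene. Against Zscan4d, Zscan4c carried T26C, and Zscan4f carried C13G and T26C. Zscan4b and Zscan4e carried the same 4 changes, T12C, G25A, T26A and C30A, and could not be separated from each other by a read confined to this stretch.

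RefSeq promoters (250 bases before to 50 after the annotated start, GRCm38.p6) were found for 4 of the 5 members. The promoters were 95.3 to 99.3% identical to one another, and each held 1 TATAAA on the forward strand, the TATA box sequence, shown in capitals because the 4 copies have it in common:

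Zscan4d: cggaagccaggggcTATAAAagggaaccaa

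Zscan4c: cggaagccaggcgcTATAAAagggaaccaa

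Zscan4f: cggaagccaggcgcTATAAAagggaaccaa

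Zscan4b: aggaagccagaggcTATAAAagggaaccaa

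These windows lie at chr7:11166198-11166227 (Zscan4d, minus strand), chr7:11005677-11005706 (Zscan4c, plus strand), chr7:11397870-11397899 (Zscan4f, plus strand) and chr7:10905066-10905095 (Zscan4b, minus strand). Relative to Zscan4d, Zscan4c and Zscan4f carried G12C, and Zscan4b carried C1A and G11A. The first T of TATAAA lay at -65 for Zscan4d, -54 for Zscan4c and -31 for both Zscan4b and Zscan4f, counted from the annotated start. Whether it works as a TATA box in each copy was not tested. TATAAA was present on either strand in 13.6% of all 32851 RefSeq promoters of that length, and on the forward strand in 8.32%. The ZSCAN4 recognition sequence TGCACAC, searched on both strands, was found in 0 of the 4 promoters and in 4.4% of all.

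Zscan4 RNA was low but present in every control library and higher in every CNOT7&8 KO library. Since the members can share reads, their counts were first summed. The summed count was 383, 151, 126 and 101 in control replicates 1 to 4 and 905, 1801, 5983 and 9505 in KO replicates 1 to 4. Scaled to counts per 1000000 of the TMM-adjusted library (CPM), the controls held 10.2, 7.45, 8.57 and 7.36 CPM and the KO libraries 98.3, 98.9, 369 and 324 CPM. The groups did not overlap, and the lowest KO library stood 9.6-fold above the highest control. The KO libraries fell into separate levels, with replicates 3 and 4 well above replicates 1 and 2, while the controls lay close together. The means were 223 ± 144 CPM in KO and 8.40 ± 1.34 CPM in control oocytes (SD, n = 4 each), a 26.5-fold difference, and the edgeR fit across all genes gave a log2 fold change of 4.72 (SE 0.44).

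**Figure D1:**
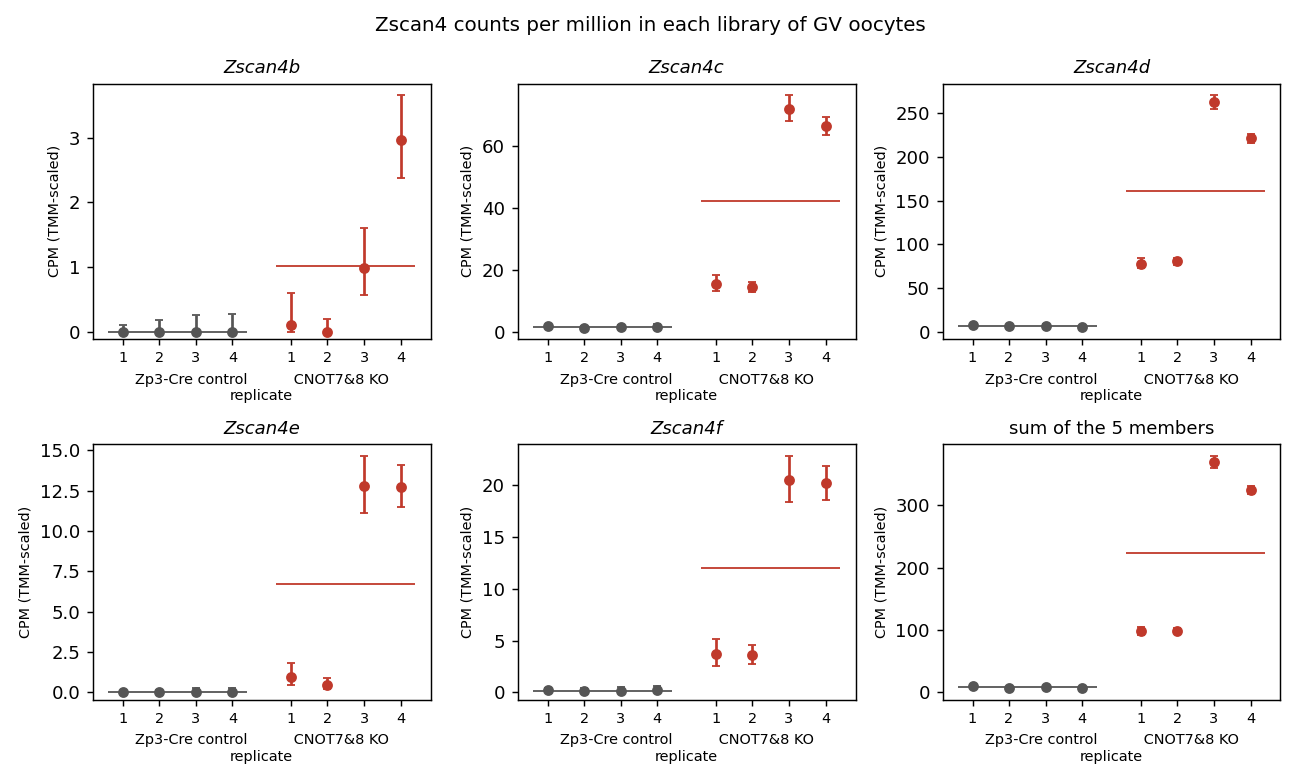
CPM (TMM-scaled, vertical axes from about 0) of each Zscan4 member and of their sum in the 4 Zp3-Cre control and 4 CNOT7&8 KO libraries. Points are libraries, bars are exact 95% Poisson intervals for counting error only, and lines are group means. In the sum the controls lie between 7.36 and 10.2 CPM, KO replicates 1 and 2 at 98.3 and 98.9, and KO replicates 3 and 4 at 369 and 324.

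Zscan4d, the form that makes up most Zscan4 RNA in 2-cell embryos, carried most of the signal in both genotypes. It had 307, 122, 103 and 77 counts in the controls and 719, 1467, 4261 and 6503 in the KO libraries, or 8.21, 6.02, 7.01 and 5.61 CPM against 78.1, 80.6, 263 and 222 CPM. Every KO library lay above every control, with KO replicate 3 highest. The means of 161 ± 95.5 and 6.71 ± 1.16 CPM (SD, n = 4 each) differed 24.0-fold (log2 fold change 4.57, SE 0.40).

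Zscan4c, the member used for reporters of the Zscan4-positive state in embryonic stem cells, had the next highest count. Its levels were 1.82, 1.28, 1.43 and 1.53 CPM in the controls and 15.4, 14.3, 72.0 and 66.4 CPM in KO (log2 fold change 4.78, SE 0.55). As for Zscan4d, KO replicates 1 and 2 were nearly level and lay well below replicates 3 and 4. Zscan4f, the closest copy of Zscan4c, had only 8, 3, 2 and 3 counts in the controls and 34, 65, 332 and 593 in KO. In CPM this was 0.214, 0.148, 0.136 and 0.219 against 3.69, 3.57, 20.5 and 20.2 (log2 fold change 6.0, SE 0.72), again without overlap.

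Zscan4e and Zscan4b had 0 counts in every control library. Zscan4e had 9, 8, 207 and 374 counts in the KO libraries, which is 0.977, 0.439, 12.8 and 12.7 CPM, so that the mean (6.73 ± 6.96 CPM, SD, n = 4) was at least 41.4-fold higher than the 0.163 CPM that 3 counts per control library would give. Zscan4b had 1, 0, 16 and 87 counts in KO, or 0.109, 0, 0.987 and 2.96 CPM. Its mean of 1.015 ± 1.37 CPM was at least 6.24-fold above the same floor, a bound that fell to 2.24-fold without KO replicate 4. KO replicates 1 and 2, at 1 and 0 counts, could not be told from the controls. KO replicate 4 was the only library with more than 16 counts of Zscan4b, and all 5 members passed the filter on low counts, Zscan4b, Zscan4e and Zscan4f only through KO libraries. KO and control values were free of overlap in 4 of the 5 members, beside 48.4% of the 19241 genes tested (30.4% of which were called in either direction), a count from which nothing is read because the contrast itself chose the cluster.

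Within the summed count the order of the members was the same in every library, with Zscan4d first, Zscan4c next and Zscan4f after it. Zscan4d took 76.2 to 81.7% of the summed count in the controls, 79.4 and 81.5% in KO replicates 1 and 2, and 71.2 and 68.4% in replicates 3 and 4. The Wilson 95% intervals of replicates 3 and 4 (70.1 to 72.4% and 67.5 to 69.3%) lay below those of KO replicates 1 and 2 (76.7 to 82.0% and 79.6 to 83.2%). These intervals, like the Poisson ones, cover counting error only.

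Zscan4c took 16.7 to 20.8% in the controls, 15.7 and 14.5% in KO replicates 1 and 2, and 19.5 and 20.5% in replicates 3 and 4. Zscan4f took 2.09, 1.99, 1.59 and 2.97% of the sum in the controls and 3.76, 3.61, 5.55 and 6.24% in KO, with no overlap between groups, although the control values rest on 2 to 8 counts and their intervals reach up to 8.37%. Zscan4e took 0.994, 0.444, 3.46 and 3.93% in the KO libraries, and Zscan4b 0.110, 0, 0.267 and 0.915%. In the controls the 0 counts of Zscan4e among 101 to 383 summed counts allowed a share of up to 0.993 to 3.66% of the sum, depending on the library (Wilson). The shares of Zscan4e in KO replicates 1 and 2 lay close to or below these limits, and a difference from the controls in this share was not detectable there. The ratio of Zscan4d to Zscan4c counts was 4.51, 4.69, 4.90 and 3.67 in the controls and 5.06, 5.62, 3.65 and 3.34 in KO, so the groups overlapped in this ratio.

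**Figure D2:**
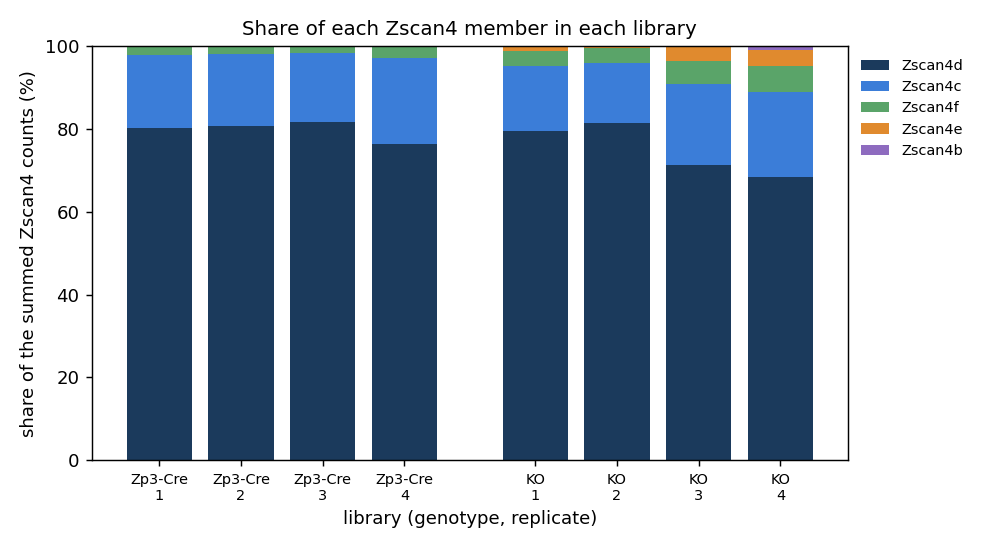
Share of the summed Zscan4 counts (%, vertical axis) taken by each member in each of the 4 Zp3-Cre control and 4 CNOT7&8 KO libraries. Zscan4d takes 68.4 to 81.7% of every library, and Zscan4e is seen only in KO libraries, up to 3.93%.

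Per kilobase of annotated exon, Zscan4d stood at 70.7 ± 42.0 CPM per kb in KO oocytes, Zscan4c at 18.5 ± 13.8, Zscan4f at 6.12 ± 4.92, Zscan4e at 3.75 ± 3.88 and Zscan4b at 0.563 ± 0.761 (SD, n = 4). The SDs of neighbours in this order overlapped, but Zscan4d exceeded Zscan4c, and Zscan4c exceeded Zscan4f, in each KO library. Had reads been counted only where they map to a single place, the length that can collect them would be the unique part of each transcript. Divided by the kilobases of unique 100-base words instead, an alternative added after the data had been seen, the levels in KO were 105 CPM per kb for Zscan4d, 71.0 for Zscan4c, 65.8 for Zscan4f, 25.8 for Zscan4e and 2.83 for Zscan4b. The order was kept, but the ratio of Zscan4d to Zscan4c dropped from 3.83 to 1.48 and that of Zscan4d to Zscan4f from 11.6 to 1.60. The study's reads were paired and longer than 100 bases, and the unique share grew with word length (Zscan4f 4.66% at 50 bases, 10.5% at 100). These ratios therefore hold for 100-base words only and do not give the true ratios of the members. How reads with several matches were counted is not given in the sources used here, so the levels of single members are uncertain, as is whether the few Zscan4b counts came from Zscan4b or from a near-identical copy.

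**Figure D3:**
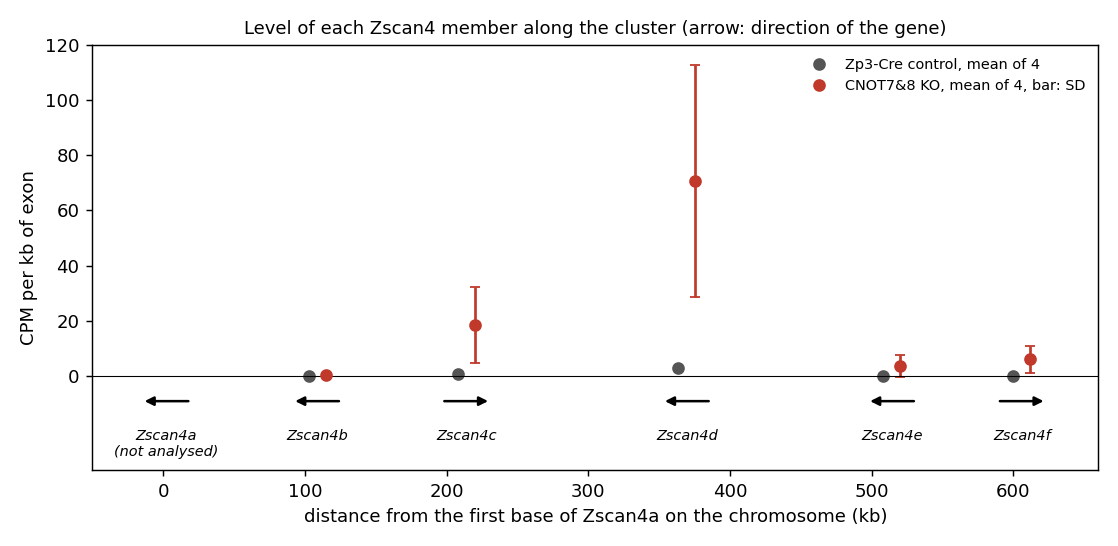
Mean CPM per kb of annotated exon (vertical axis) of each Zscan4 member, placed by its distance in kb from the first base of Zscan4a (horizontal axis), in Zp3-Cre control (grey, mean of 4) and CNOT7&8 KO libraries (red, mean of 4, bars SD). Arrows give the direction of each gene. Zscan4d, in the middle of the cluster, is highest at 70.7 CPM per kb in KO, and Zscan4b at the left is lowest of the 5 at 0.563.

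The labels were checked with the targeted genes. Cnot8 fell from 197, 163, 157 and 154 CPM in the controls to 33.1, 35.5, 35.96 and 36.1 CPM in KO (log2 fold change -2.25, SE 0.12, adjusted p = 8.2e-08, edgeR quasi-likelihood with Benjamini-Hochberg correction). Cnot7 was 1049, 900.2, 898 and 886 CPM in the controls and 749, 789, 622 and 717 CPM in KO (log2 fold change -0.38, SE 0.11, adjusted p = 0.0105 by the same test). With library size as the only scaling, which raised log2 fold changes by 0.29 in the median over all genes, the Cnot7 difference was -0.09 and did not pass (adjusted p = 0.385, edgeR quasi-likelihood with Benjamini-Hochberg correction). Counts are for whole genes, so reads from any exon left undeleted would count toward both genes, but exons were not examined here. The study itself reported by immunoblotting that both proteins were depleted in the KO oocytes. The 4 KO libraries were alike in Cnot8, while Cnot7 was lowest in KO replicate 3. Whether either level is related to the spread of Zscan4 among the KO libraries was not tested. Total counts ranged from 14943671 to 44092144 in the controls and from 8639444 to 26784110 in KO.

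All 12 oocyte markers were detected in every library. Their summed level was 18346 to 21442 CPM in the controls and 16878, 17576, 15337 and 15257 CPM in KO replicates 1 to 4, so that the libraries with most Zscan4 had the least. Single markers moved both ways, among them Kit (log2 fold change -0.97, SE 0.20) and Ddx4 (0.96, SE 0.17). Of the 12, 0 were called higher and 0 lower, beside 23.8% and 6.56% of all tested genes, with calls as defined in the next sentence. Granulosa and cumulus markers summed to 96.1 to 124 CPM over 16 genes in the controls and to 216, 221, 149 and 99.4 CPM in KO, with 6 of the 15 tested called higher (a call being a fold of 2 or more at an adjusted p no higher than 0.05, which 23.8% of all tested genes reached in this direction), among them Gja1 and Inha, 0 called lower and Foxl2 too low to be tested. Cyp19a1, the aromatase and the most abundant of these markers in the controls, went the other way, from 50.4 to 67.7 CPM in the controls to 23.5 to 38.1 CPM in KO (log2 fold change -0.90, SE 0.16, short of the fold threshold). The summed level was highest in KO replicates 1 and 2, where Zscan4 was lowest among the KO libraries, and its part in the Zscan4 values was not tested. Markers of theca, blood, immune, endothelial and stromal cells summed to 75.7 to 110 CPM over 8 genes, nearly all of it Pecam1 (73.3 to 108 CPM), while Hbb-bt and Hba-a1 were at 0 in all libraries. Of the 6 tested, 1 was called higher, the leukocyte marker Ptprc, with 0.0267 to 0.340 CPM in the controls and 0.326, 0.549, 1.11 and 0.477 CPM in KO (log2 fold change 2.53, SE 0.73). Ptprc had 8 counts in all controls together, and its groups overlapped. It passed the filter on low counts only through KO libraries, so that it could be called in no other direction.

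The question of which other genes of the 2-cell programme moved was taken to a list of 30 genes, chosen with earlier results of these data known. Of the 29 tested, 23 were called higher and 0 lower, beside 23.8% higher and 6.56% lower among all tested genes (4582 and 1263 genes, or 5643 and 587 with library size alone and 5495 and 628 with TMM on genes of at least 10 CPM). The median log2 fold change of the list was 5.79, or 3.55 when the 13 genes at the floor of 3 counts per library in the controls were set to their bound, beside 0.12 and 0.10 over all tested genes. KO and control values did not overlap for 18 of the 29, beside 48.4% of all tested genes. Of the 23 called genes 15 passed the filter on low counts only through the KO libraries, so that they could be called in no other direction, as could 1785 of the 4582 called over all genes.

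Usp17lb, one of a family of deubiquitinases expressed with Zscan4, was among the largest risers with a level to measure in the controls. It had 0.428, 0.0987, 0.272 and 0.0728 CPM in the controls and 80.03, 80.96, 319 and 331 CPM in KO (log2 fold change 9.58, SE 0.70, adjusted p = 7.6e-07, edgeR quasi-likelihood with Benjamini-Hochberg correction). Its KO values followed the Zscan4 sum, low in replicates 1 and 2 and high in 3 and 4. Usp17la, a relative of Usp17lb, had 0 counts in every control and 3.37, 2.91, 16.5 and 24.9 CPM in KO, at least 73.2-fold above the floor. Gm2022 had 0 counts in the controls as well and 8.69, 2.86, 26.6 and 35.3 CPM in KO, at least 113-fold above it. Gm8300 had 1 count in the controls and 1.96, 1.04, 24.2 and 46.2 CPM in KO. Gm2022 and Gm8300 belong to the eukaryotic initiation factor 1A-like genes of the 2-cell stage. Like Zscan4, these are multicopy families, so the counts of single copies are uncertain.

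Sp110 and Arg2, the most abundant of the uncalled members of that list, are an immune-related nuclear body protein and the mitochondrial arginase. Sp110 had 402 to 516 CPM in the controls and 306 to 397 CPM in KO (log2 fold change -0.33, SE 0.12), and Arg2 321 to 399 CPM against 275 to 336 CPM (log2 fold change -0.20, SE 0.11). Both were thus well expressed in control oocytes already. The other uncalled genes, named after their values were seen, had control means of 75.8 (Tcstv1), 3.14 (Tmem92), 1.25 (Snai1) and 0.254 CPM (Spic). Of the 23 called genes, 13 had at most 3 counts in every control library, but the called Tcstv3 had a control mean of 16.6 CPM. Low control levels were thus found among called and uncalled genes alike.

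**Figure D4:**
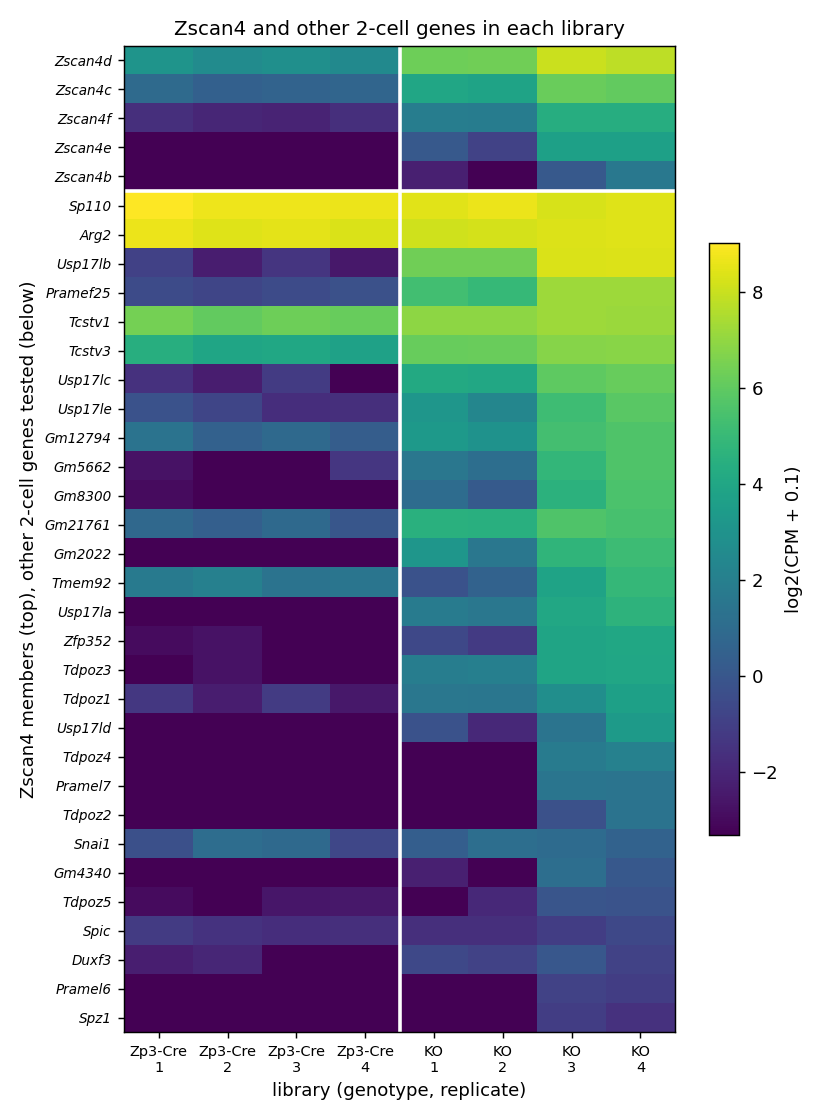
Log2(CPM + 0.1) (colour) of the 5 Zscan4 members (above the white line) and the 29 tested other 2-cell genes (below) in 4 Zp3-Cre control and 4 CNOT7&8 KO libraries. Most rows are darkest in the controls and brightest in KO replicates 3 and 4, while Sp110 and Arg2 are bright throughout.

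The spread among the KO libraries was shared by the list. Of the 5 members, 4 were highest in KO replicate 3 and 1 in replicate 4, and of the 23 called 2-cell genes 7 were highest in replicate 3 and 16 in replicate 4. For comparison, 63.3% of all 4582 genes called higher had their highest KO value in replicate 3 or 4. The median coefficient of variation among KO libraries was 80.5% for the members, 92.4% for the 23 genes and 28.5% for all genes called higher, of which 14.8% varied at least as much as the Zscan4 sum (64.8%). Of the 23 genes, 5 had no count in KO replicates 1 and 2. These genes had adjusted p-values at or under the threshold through replicates 3 and 4 alone. Zfp352, a zinc finger retrogene of the 2-cell stage that is named here after its values were seen, had 0.543, 0.330, 14.4 and 16.2 CPM in KO replicates 1 to 4. What sets replicates 3 and 4 apart is not given in the labels and was not tested.

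Over all 8 libraries, the genes whose profile was most like that of the Zscan4 sum were B020031M17Rik, Kdm4dl, Nxnl2, Pramef25 and Usp17lb. Likeness was the overlap of the 2 profiles after each was divided by its sum over the libraries, from 0 to 1. It was 0.961 for B020031M17Rik, 0.956 for Kdm4dl, 0.947 for Nxnl2, 0.944 for Pramef25 and 0.943 for Usp17lb, against a median of 0.488 over 13755 genes of at least 1 mean CPM. The members themselves overlapped with their sum by 0.973 for Zscan4d, 0.955 for Zscan4c, 0.914 for Zscan4f, 0.803 for Zscan4e and 0.620 for Zscan4b. B020031M17Rik had 0.345 to 0.748 CPM in the controls and 25.2, 22.3, 75.1 and 69.9 CPM in KO. Pramef25, of the PRAME family, had 0.494 to 0.728 CPM in the controls and 39.3, 30.8, 145 and 149 CPM in KO. Usp17lb and Pramef25 were also in the 2-cell list. The points of these profiles are the same 8 libraries, and the likeness was chosen as the highest of many, so it carries no test. Leaving out 1 KO library could change which genes came first: 2 of the 5 stayed among them without KO replicate 1, and 1 of the 5 without replicate 3 or without replicate 4.

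Of the 12 activators of the 2-cell state, 4 were called higher and 0 lower, beside 23.8% and 6.56% of all tested genes, and the list's median log2 fold change was 0.11. The 4 were Duxf3, Dppa4, Obox3 and Nr5a2. Duxf3 is also in the 2-cell list and is counted among the called genes of both lists. Duxf3, the mouse Dux gene whose product binds upstream of Zscan4, had 7 counts in all controls together and 41 in KO. It reached 0.543, 0.439, 0.925 and 0.443 CPM in KO against 0.107, 0.148, 0 and 0 CPM in the controls (log2 fold change 2.82, SE 0.70, adjusted p = 0.0045, edgeR quasi-likelihood with Benjamini-Hochberg correction). Alone of the 4, Duxf3 passed the filter on low counts only through KO libraries, so that it could be called in no other direction. Its groups did not overlap, but its KO libraries did not show the separation of Zscan4, as replicate 4 was level with replicates 1 and 2. Duxf3 is part of a repeat array, so its counts are uncertain.

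Dppa4, a SAP domain protein that acts with Dppa2 upstream of Dux, rose from 21.0 to 24.6 CPM in the controls to 71.5 to 81.8 CPM in KO (log2 fold change 1.75, SE 0.12). Its partner Dppa2 missed the fold threshold at a log2 fold change of 0.71 (SE 0.14). Nr5a2, an orphan nuclear receptor with a role in embryonic genome activation, had 48.3 to 69.3 CPM in the controls and 114 to 132 CPM in KO (log2 fold change 1.11, SE 0.13). Obox3, of the Obox homeobox family, had 0.947 to 2.43 CPM in the controls and 3.52 to 7.39 CPM in KO (log2 fold change 1.71, SE 0.32). The maternally abundant Obox2 and Obox5 were not called, with log2 fold changes of -0.64 (SE 0.12) and -0.38 (SE 0.11).

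Of 30 repressors of the 2-cell state, 5 were called higher and 3 lower (16.7% and 10%, beside 23.8% and 6.56% of all tested genes), with a median log2 fold change of -0.13. Dnmt1, the maintenance DNA methyltransferase, had 3936 to 4698 CPM in the controls and 1731 to 2089 CPM in KO (log2 fold change -1.20, SE 0.11, adjusted p = 3.79e-06, edgeR quasi-likelihood with Benjamini-Hochberg correction). The other 2 called lower were Uhrf1, which brings Dnmt1 to DNA, and Pias4, a SUMO ligase, and these were named after their values were seen. The 5 called higher were Cbx3, Zfp281, Ehmt2, Hdac1 and Ring1, the last also named after its values were seen. Cbx3, a heterochromatin protein, rose from 1.75 to 3.45 CPM to 11.1 to 13.4 CPM (log2 fold change 2.20, SE 0.23), and Ehmt2, the H3K9 methyltransferase G9a, from 2.25 to 3.33 to 6.10 to 11.6 CPM (log2 fold change 1.79, SE 0.24). Rif1, a chromatin protein that restrains Zscan4 in embryonic stem cells, was not called at a log2 fold change of -0.52 (SE 0.15). The calls of lower repressors depended on scaling, since 0 were called lower with library size alone or with TMM on genes of at least 10 CPM.

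Telomere maintenance, the process for which Zscan4 is best known, was covered by 25 genes of which 24 had a row, and 3 were called higher and 2 lower (12.5% and 8.33%, beside 23.8% and 6.56% of all tested genes). The list's median log2 fold change was -0.34. Terf2ip, the shelterin subunit RAP1, had 2.84 to 4.81 CPM in the controls and 17.6 to 21.2 CPM in KO (log2 fold change 2.35, SE 0.19, adjusted p = 1.65e-06, edgeR quasi-likelihood with Benjamini-Hochberg correction). Wrap53, which brings telomerase to Cajal bodies, and Tet2, a 5-methylcytosine dioxygenase that is known to act on Zscan4 and telomere length, were the other 2 called higher (log2 fold changes 2.20, SE 0.32, and 1.64, SE 0.18). Ten1, of the CST complex that finishes the telomere's C-strand, had 4.79 to 6.71 CPM in the controls and 1.81 to 3.40 CPM in KO (log2 fold change -1.23, SE 0.24). Gar1, of the H/ACA particle that telomerase shares, was also called lower and is named after its values were seen. The count of lower telomere genes was 0 with library size alone or with TMM on genes of at least 10 CPM, and 1 with upper quartile scaling. Atrx (log2 fold change -0.38, SE 0.16) and Dkc1 (0.52, SE 0.16), the uncalled members with the highest mean CPM over all 8 libraries, are a chromatin remodeller of telomeric repeats and the pseudouridine synthase of telomerase.

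Of 23 SCAN and zinc finger relatives, taken by gene symbol, 9 were called higher and 0 lower, with a median log2 fold change of 0.73. The share called higher was 39.1%, beside 23.8% of all tested genes, of which 6.56% were called lower. Of the 9, 2 (Zkscan2 and Zscan30) passed the filter on low counts only through KO libraries, so that they could be called in no other direction. Zkscan2 had 0 to 0.272 CPM in the controls and 6.73, 6.48, 3.95 and 9.54 CPM in KO (log2 fold change 6.41, SE 0.61, adjusted p = 4.89e-06, edgeR quasi-likelihood with Benjamini-Hochberg correction). Zscan5b had 2.38 to 3.88 CPM in the controls and 14.9, 16.6, 21.96 and 20.6 CPM in KO (log2 fold change 2.66, SE 0.21). In neither were KO replicates 3 and 4 both well above replicates 1 and 2, as they were in Zscan4. Zscan30, annotated as a transcribed processed pseudogene, had 1 count in the controls and 0.326, 0.330, 0 and 0.477 CPM in KO, at levels near the floor. Zkscan3 rose with a log2 fold change of 1.85 (SE 0.28) and the abundant Zkscan1 with 1.27 (SE 0.16), whereas Zkscan6, with 176 to 192 CPM in the controls, was not called at -0.34 (SE 0.09).

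**Figure D5:**
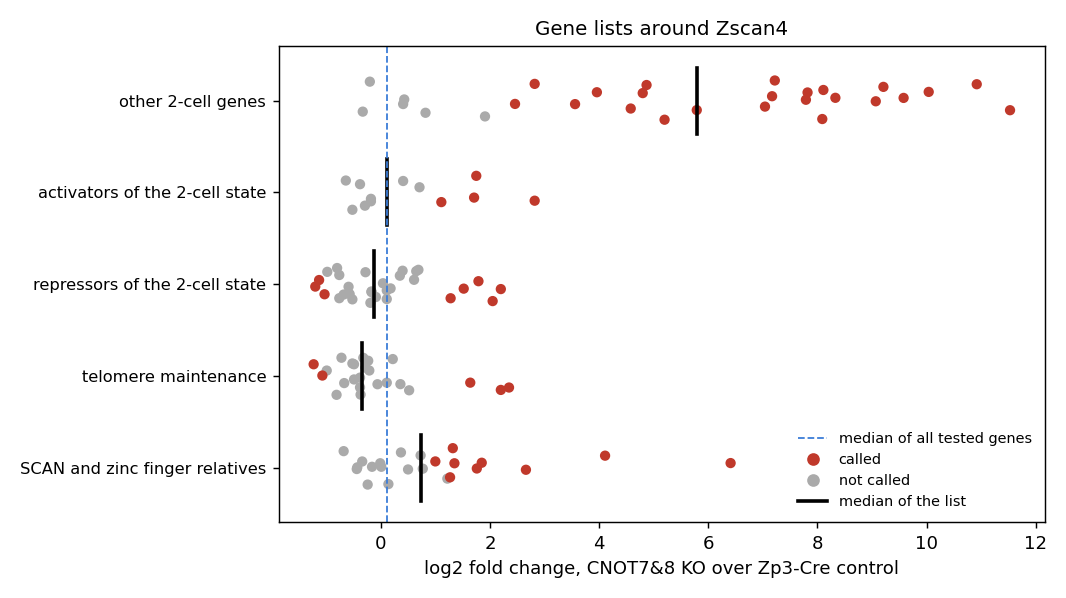
Log2 fold change of CNOT7&8 KO over Zp3-Cre control (horizontal axis) for each tested gene of the 5 lists around Zscan4, from edgeR's fit on 4 libraries a group. Red points were called, grey points were not, black bars are list medians and the dashed line is the median of all tested genes (0.12). The 2-cell list lies to the right of the others, with a median of 5.79.

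Around the cluster, the table held 55 genes within 1 Mb of its span, of which 17 had a count and 4 were tested. Of these 4, 1 was called higher and 0 lower, near the 23.8% of all tested genes called higher. That gene was Zik1, a zinc finger repressor named after its values were seen, with 3.79 to 5.11 CPM in the controls and 8.39 to 11.1 CPM in KO (log2 fold change 1.21, SE 0.18). The nearest tested gene below the cluster, Nlrp4b, lies 64074 bp away and belongs to the oocyte NLRP genes. It had 885 to 1298 CPM in the controls and 431 to 607 CPM in KO, a log2 fold change of -0.93 (SE 0.14) that missed the fold threshold. Gm10179, the nearest above, lies 683607 bp away and had at most 3 counts in any control. No tested gene within 1 Mb showed a change near that of the Zscan4 members in this fit.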

How the data were processed

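The authors extracted RNA with TRIzol, made stranded libraries (a total RNA kit with ribosomal RNA depletion per the labels, an mRNA kit in the study's methods) with 11 PCR cycles, mapped reads to GRCm38 with STAR 2.6.1d as run by nf-core/rnaseq, and deposited raw counts per gene for all 8 libraries, with no normalization. The submitters' processing notes also name edgeR 3.11. The counting step of that pipeline, its annotation and strand setting are not given in the sources used here, so counts of near-identical, overlapping or antisense genes are uncertain. Groups and replicate numbers came from the labels.

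Counts were analysed in R 4.3.3 with edgeR 4.0.16. Genes of at least 0.2 CPM in 2 libraries (19241 of 46078) were scaled by TMM and tested by edgeR quasi-likelihood, with Benjamini-Hochberg correction over all of them. A gene was called where its fold was 2 or more at an adjusted p no higher than 0.05. Each SE was derived from the fit, as the absolute log2 fold change over the square root of the quasi-likelihood F statistic. CPM values are counts per 1000000 of TMM-scaled library size. Fold changes against controls of at most 3 counts per library are lower bounds against 3 counts per library. Shares have Wilson and CPM exact Poisson 95% intervals, which cover counting error only. Coordinates came from GENCODE vM21 (98.2% of identifiers matched) and promoters from RefSeq. Identities were computed with Biopython 1.88, and figures drawn with matplotlib 3.10.9. The test was checked on simulated data in which few genes changed, evenly in both directions and none near the floor. That check does not cover the uneven calls or the genes at the floor seen here.

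The members and gene lists were chosen with earlier results of these data known. Named genes were the members, other genes inside the cluster and the nearest tested gene on each side, the 5 genes of highest profile overlap, up to 4 called genes of largest change and 2 abundant others per list, and Cnot7 and Cnot8. Alternatives were other scalings (library size, RLE, upper quartile, and TMM restricted to genes averaging 10 CPM or more), different filters and thresholds, edgeR's exact test, DESeq2 1.42.0, the replicate number as a block, and leaving out each library.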

Additional observations from a re-analysis of the deposited data

Results flagged for a closer look

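In 7 of 96 groups of 4 libraries examined, where chance gives about 4.8, Dixon's criterion set the highest library apart from its group, and each time it was control replicate 1, the most deeply sequenced. None of the 7 was a Zscan4 member or the summed level. Cnot7 stood at 1049 CPM there against 886 to 900.2 CPM in the other controls. Rif1 stood at 1697 CPM against 1120 to 1186 CPM, and Atrx at 1301 CPM against 818 to 898 CPM. Zkscan1 was at 102 CPM against 67.8 to 69.3 CPM. The 12 oocyte markers summed to 21442 CPM against 18346 to 18872 CPM. Gm8300 and Zscan30 were each at 0.0267 CPM, which is 1 count, against 0 in the other controls.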

How the results depend on the processing

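The summed Zscan4 level kept its direction under the other scalings, edgeR's exact test, DESeq2, a mean of the members' CPM per kb, the replicate block and each library left out, with log2 fold changes between 4.40 and 4.99 when each library was left out in turn (filters and thresholds were varied for calls, not for this value), 5.02 with library size alone and 4.45 with the replicate number as a block. With library size as the only scaling 587 genes were called lower, 0 repressors and 0 telomere genes were called lower, 2 neighbouring genes higher, and the Cnot7 difference of -0.09 no longer passed on its adjusted p. TMM on genes of at least 10 CPM gave 628 genes lower, 0 repressors and 0 telomere genes lower and 2 neighbours higher, and upper quartile scaling gave 1 telomere gene lower. Keeping only genes that reach 1 CPM in 4 libraries, which tests fewer genes, left 2882 genes higher, 13 other 2-cell genes higher and 1 telomere gene lower. Calls on adjusted p alone gave 4631 genes lower, with 1 other 2-cell gene, 3 activators, 12 repressors, 12 telomere genes, 4 SCAN relatives and 1 neighbour lower and 8 repressors higher. Within 200 kb 0 neighbours were called higher. Where no value shows the cause of such a shift, the cause was not tested.

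With 1 library left out, lower telomere genes numbered 1 to 3 (1 without KO replicate 2 or without KO replicate 4), other 2-cell genes called higher 16 to 24, and the genes that stayed among the 5 of highest profile overlap 1 to 5. The replicate block changed no call of a list by over 1.5 times (22 other 2-cell genes higher, 4316 genes higher and 1254 lower), and the numbers were not taken as pairs, since deviations of same-numbered libraries from their group means correlated at -0.16, -0.10, 0.26 and -0.31, and controls 1, 2 and 4 each correlated best with a KO library of another number. Per kilobase of unique sequence, an alternative chosen after the data were seen, Zscan4d exceeded Zscan4c 1.48-fold and Zscan4f 1.60-fold. Uniqueness was counted in 100-base words, shorter than the reads, and these values depend on that length. Copies with Zscan4-ps symbols were not added to the sum, since they were not analysed here. Zscan4b had no fitted value without KO replicate 3 or without KO replicate 4, where it missed the filter on low counts. Depth limits Zscan4b, Zscan4e and Zscan4f in the controls, where at most 8 counts were seen in a library.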
